A study of Mus musculus with 6 samples.

Results

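Genes that mark fibroblasts and fibro-adipogenic progenitors (FAPs) were examined in fetal mouse leg muscle by RNA-seq at embryonic day 18.5. There were 10 such genes among the 56262 genes counted. They are *Pdgfra*, *Pdgfrb*, *Cd34*, *Dpp4*, *Pi16*, *Osr1*, *Tcf21*, *Twist2*, *Dpt* and *Clec3b*. They were chosen by name, with earlier results of these data known, and each was found in the count table by its Ensembl identifier. The design compared 3 WT libraries with 3 *SYISL* KO libraries, to see which transcripts differ in muscle that lacks *SYISL*, a long noncoding RNA transcribed from an intron region of *Synpo2*. The annotation used here lists no gene of that name, so the deletion itself was not checked in the counts. Parents were mated within their genotype, so WT fetuses came from WT mothers and KO fetuses from KO mothers, and the effect of the fetal genotype cannot be told apart from that of the mother or of the litter. The labels give neither the strain, the sex nor how many fetuses made up a library.

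FAPs are mesenchymal cells that lie between muscle fibers and carry the receptor PDGFRα on their surface. They secrete collagens and growth factors, support the fusion of muscle progenitors, and can turn into fat cells or matrix-producing fibroblasts. *Pi16* and *Dpp4* mark a fibroblast state near blood vessels that is found in many tissues, whereas *Osr1*, *Twist2* and *Tcf21* encode transcription factors of embryonic mesenchyme. Several of the 10 genes are shared with other cells, since pericytes carry PDGFRβ, endothelial cells carry CD34, and dermal fibroblasts express *Dpt* and *Twist2*. In bulk tissue, a larger number of cells of a type and more RNA per cell cannot be told apart.

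Library totals ran from 82054811 to 102233181 counts, and a count of 0 at this depth allows a level of up to 0.0284 to 0.0363 CPM (read counts relative to library size), a limit that covers counting error only. Levels are CPM on library sizes scaled by the trimmed mean of M values (TMM), and differences as log2 fold changes of KO over WT from edgeR's quasi-likelihood test, with p-values adjusted over the 22071 genes tested. A gene is said to have risen or fallen at an adjusted p under 0.05, and to be called when it also differed by over 1.5-fold, the threshold of the study. Markers of other cell types differed between the genotypes. The 8 keratinocyte markers summed to 15088, 22568 and 16921 CPM in the WT libraries and to 651, 732 and 695 CPM in the KO libraries, and all 8 were called lower. The 5 red blood cell markers summed to 3228 to 3994 CPM in WT libraries, against 474 to 548 CPM in KO libraries. For the 7 muscle fiber markers the sums were 16854 to 19055 CPM in WT libraries, against 36979 to 44684 CPM in KO libraries. The part of these shifts in the results below was not tested.

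Of the 10 genes, 9 passed the filter on low counts. *Pdgfra*, *Pdgfrb*, *Cd34*, *Dpt* and *Clec3b* rose in KO, 4 of them by 18% to 25% and *Clec3b* by 58%. *Dpp4*, *Pi16*, *Osr1* and *Twist2* showed no difference that passed the test, and *Tcf21* was at the detection limit in both genotypes. None of the 9 fell. With the 1.5-fold threshold, 1 of the 9 was called higher and 0 lower, where 8.31% of all genes tested were called higher and 8.39% lower. Without that threshold, 5 of 9 (55.6%) passed the test, against 45% of all genes (21.9% higher and 23.1% lower). The WT and KO values of 5 of 9 (55.6%) did not overlap, against 55.9% of all genes (27.3% higher and 28.5% lower). Counted in either direction, these shares are near those of all genes, and all 5 of the genes that moved were higher. The 95% interval of the fold change lay within 1.5-fold in both directions for 8 of the 9, against 58% of all genes. Together, the 10 genes summed to 981, 991 and 991 CPM in the WT libraries and to 1199, 1201 and 1195 CPM in the KO libraries.

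**Figure D1:**
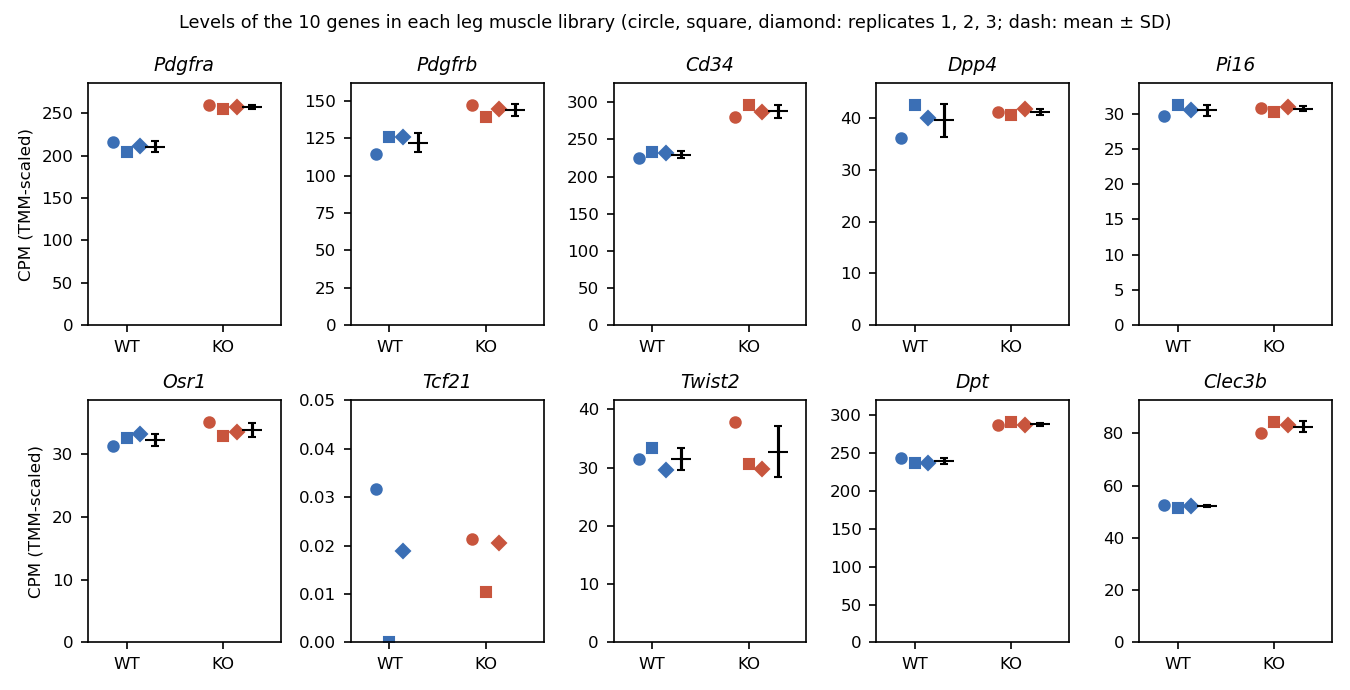
CPM of each of the 10 genes (vertical axes from 0, TMM-scaled) in the 3 WT (blue) and 3 KO (red) libraries, with the mean and SD as a black dash and bar. The KO points of *Pdgfra*, *Pdgfrb*, *Cd34*, *Dpt* and *Clec3b* all lie above the WT points, those of *Dpp4*, *Pi16*, *Osr1* and *Twist2* overlap them, and *Tcf21*, shown with no mean, stays at 0.0317 CPM or below.

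The PDGF receptors are tyrosine kinases through which platelet-derived growth factors drive the growth of mesenchymal cells. *Pdgfra* (ENSMUSG00000029231.15, chromosome 5, 75152292 to 75198215 in mm10, plus strand) encodes the receptor that FAPs carry. It was at 216, 204 and 211 CPM in the WT libraries and 259.6, 255 and 257 CPM in the KO libraries. The groups did not overlap, and the spread within KO was small. *Pdgfra* rose 1.22-fold with a 95% interval of 1.15 to 1.30, from 210.4 ± 6.25 to 257 ± 2.13 CPM (mean ± SD of 3 libraries). On the log2 scale the difference was 0.29 with a standard error of 0.041 (edgeR adjusted p = 3.41e-04). *Pdgfrb* (ENSMUSG00000024620.11, chromosome 18, 61045150 to 61085061, plus strand), which pericytes share with fibroblasts, was at 115, 126 and 126 CPM in WT and 147, 139 and 145 CPM in KO. All KO values were above all WT values, with WT replicate 1 the lowest library. Its mean rose from 122 ± 6.42 to 144 ± 3.99 CPM, 1.18-fold (interval 1.09 to 1.27, edgeR adjusted p = 0.00298).

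The ratio of the receptors does not depend on how libraries are scaled. The log2 ratio of *Pdgfra* over *Pdgfrb* CPM was 0.92, 0.70 and 0.74 in WT and 0.82, 0.87 and 0.83 in KO, and the KO values lay inside the WT range. The means differed by 0.055, less than the SD of 0.11 in WT (exact two-sided permutation test over samples, p = 0.5, where 0.1 is the smallest p that 3 against 3 allow).

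Among the 3 proteins found at the surface of progenitors, *Cd34* rose and the others did not pass the test. *Cd34* (ENSMUSG00000016494.9, chromosome 1, 194938819 to 194961279, plus strand) encodes a sialomucin of FAPs, endothelial cells and blood progenitors. It was at 225, 233 and 231 CPM in WT and 280.02, 296 and 287 CPM in KO, with no overlap. Its level rose 1.25-fold (interval 1.17 to 1.34, edgeR adjusted p = 2.17e-04). An antisense gene, *Gm16897*, overlaps its exons and held 236 to 421 counts, against 19268 or more for *Cd34*. Since the strand setting of the counting is not stated, reads of the pair cannot be separated with certainty.

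*Dpp4* (ENSMUSG00000035000.8, chromosome 2, 62330073 to 62412231, minus strand) encodes a cell-surface peptidase. Its values were 36.3, 42.6 and 40.03 CPM in WT and 41.2, 40.6 and 41.8 CPM in KO. The KO values lay inside the WT range. The fold of KO over WT was 1.04 with a 95% interval of 0.953 to 1.14 (edgeR adjusted p = 0.449). *Pi16* (ENSMUSG00000024011.17, chromosome 17, 29317680 to 29330593, plus strand), which encodes a peptidase inhibitor and marks the same perivascular fibroblasts, had the smallest difference of the 9 genes. It stood at 29.7, 31.2 and 30.5 CPM in WT and 30.8, 30.3 and 31.03 CPM in KO, a fold of 1.01 (interval 0.945 to 1.08, edgeR adjusted p = 0.849). Neither interval reaches 1.5-fold in either direction, while both leave room for smaller changes.

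The transcription factors had the smallest summed difference by role, with levels of 62.7, 65.8 and 62.7 CPM in WT and 72.8, 63.5 and 63.3 CPM in KO. *Osr1* (ENSMUSG00000048387.8, chromosome 12, 9570116 to 9581500, plus strand) encodes a zinc-finger protein of limb connective tissue from which fetal FAPs derive. Its values were 31.2, 32.5 and 33.1 CPM in WT and 35.03, 32.8 and 33.5 CPM in KO, a fold of 1.05 (interval 0.977 to 1.122, edgeR adjusted p = 0.258). The genotypes overlapped only between WT replicate 3 and KO replicate 2. *Twist2* (ENSMUSG00000007805.4, chromosome 1, 91801461 to 91848028, plus strand) encodes a basic helix-loop-helix (bHLH) protein of dermal and other mesenchyme. It was at 31.4, 33.3 and 29.6 CPM in WT and 37.8, 30.7 and 29.7 CPM in KO, so that KO replicate 1 stood above all other libraries and the other KO libraries lay within the WT range. The fold was 1.04 (interval 0.907 to 1.19, edgeR adjusted p = 0.633), and without KO replicate 1 the log2 fold change was -0.053. *Crabp1* encodes a retinoic acid-binding protein of the upper dermis. Its level was also higher in KO replicate 1 (79.1 CPM) than in KO replicates 2 and 3 (59.1 and 57.8 CPM). Of the other papillary dermis markers followed below, *Apcdd1*, *Lef1* and *Ntn1* were likewise highest of the KO libraries in replicate 1. *Axin2*, *Lrig1* and *Col23a1* were lowest there, and the relation of these markers to *Twist2* was not tested. The antisense gene *Gm29100* overlaps *Twist2* exons and held 90 to 126 counts, against 2754 or more for *Twist2*.

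*Tcf21* (ENSMUSG00000045680.8, chromosome 10, 22817281 to 22820174, minus strand), which encodes a bHLH factor of mesenchyme in internal organs, had 3, 0 and 2 counts in WT and 2, 1 and 2 counts in KO. The gene did not pass the filter on low counts, so no fold change is given. *Tcf21* was thus too low to be compared as a fibroblast marker in these muscles, with no library above 3 counts, while the other 9 genes each had 2582 or more counts per library.

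The matrix and secreted proteins had the largest summed difference by role, with 297, 289 and 289.5 CPM in the WT libraries and 367, 375 and 370.4 CPM in the KO libraries. *Dpt* (ENSMUSG00000026574.5, chromosome 1, 164796644 to 164824266, plus strand) encodes dermatopontin, which binds decorin and assists collagen fibril assembly. It was at 244, 237 and 237 CPM in WT and 287, 291 and 287 CPM in KO, without overlap, and rose 1.20-fold (interval 1.13 to 1.28, edgeR adjusted p = 4.50e-04). *Clec3b* (ENSMUSG00000025784.5, chromosome 9, 123150946 to 123157432, plus strand) encodes tetranectin, a secreted lectin that binds plasminogen. Its values were 52.5, 51.6 and 52.2 CPM in WT and 80.1, 84.3 and 83.2 CPM in KO. Relative to the level of the gene, these groups were the farthest apart among the 9 genes, with the lowest KO library well above the highest WT library. *Clec3b* rose by 0.66 on the log2 scale with a standard error of 0.036 (edgeR adjusted p = 7.02e-07), and its mean level went from 52.1 ± 0.438 to 82.5 ± 2.14 CPM. Its fold of 1.58 had a 95% interval of 1.497 to 1.68, which just reaches below the 1.5-fold threshold.

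**Figure D2:**
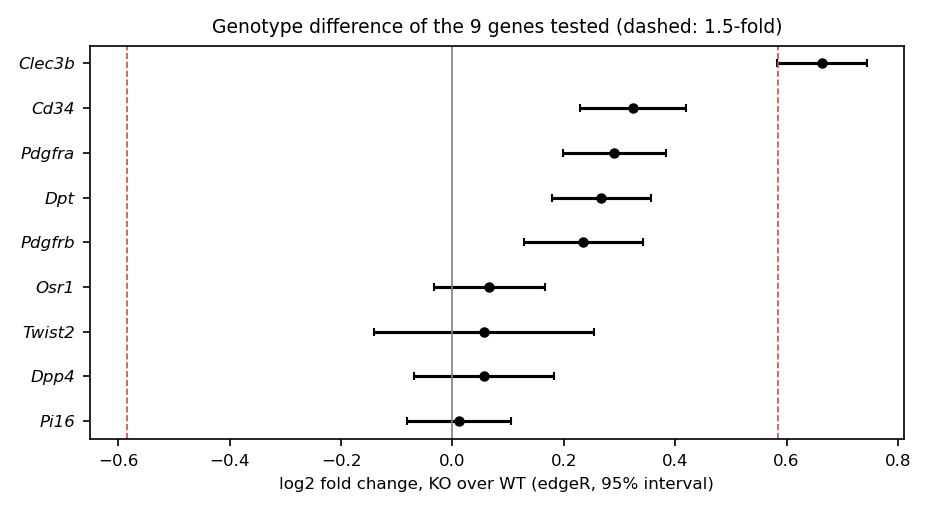
Log2 fold change of KO over WT (horizontal axis) with its 95% interval for the 9 genes tested with edgeR, ordered by size, with dashed lines at 1.5-fold. *Clec3b* at 0.66 is the only gene beyond the dashed line, 4 genes lie between 0.24 and 0.32, and the intervals of *Osr1*, *Twist2*, *Dpp4* and *Pi16* include 0.

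Promoter sequence was available from RefSeq (GRCm38.p6, the assembly of mm10) for 7 of the 10 genes. The stretches from 250 to 21 bases before the start are shown for *Pdgfra*, *Dpt* and *Cd34*, which rose by like amounts, and for *Dpp4*, which did not pass the test. *Twist2* and *Tcf21* encode bHLH proteins, a family that binds the E-box CANNTG, so E-boxes found on either strand are in capitals and the other bases in lower case.
*Pdgfra* promoter, chr5:75152001-75152230, plus strand: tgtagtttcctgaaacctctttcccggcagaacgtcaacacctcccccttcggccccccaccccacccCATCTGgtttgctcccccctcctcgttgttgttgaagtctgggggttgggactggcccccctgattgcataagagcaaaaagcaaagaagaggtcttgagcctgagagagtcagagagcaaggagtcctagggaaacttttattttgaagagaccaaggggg
*Dpt* promoter, chr1:164796413-164796642, plus strand: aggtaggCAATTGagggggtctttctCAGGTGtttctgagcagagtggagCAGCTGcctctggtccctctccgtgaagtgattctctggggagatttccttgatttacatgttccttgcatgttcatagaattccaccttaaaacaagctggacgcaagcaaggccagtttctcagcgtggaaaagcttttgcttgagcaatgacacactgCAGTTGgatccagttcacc
*Cd34* promoter, chr1:194938571-194938800, plus strand: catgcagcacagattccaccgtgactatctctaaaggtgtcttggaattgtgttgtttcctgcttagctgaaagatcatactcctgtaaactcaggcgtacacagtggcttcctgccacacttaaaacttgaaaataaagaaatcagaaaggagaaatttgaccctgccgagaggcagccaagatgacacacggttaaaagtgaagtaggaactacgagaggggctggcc
*Dpp4* promoter, chr2:62412252-62412481, minus strand: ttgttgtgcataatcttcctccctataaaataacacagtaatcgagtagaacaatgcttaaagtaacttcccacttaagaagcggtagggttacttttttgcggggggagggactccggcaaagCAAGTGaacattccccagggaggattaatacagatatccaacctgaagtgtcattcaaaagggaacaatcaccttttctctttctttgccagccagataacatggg
*Dpt* held 4 E-boxes, *Pdgfra* 1, *Dpp4* 1 and *Cd34* 0. The available promoters not shown, those of *Pi16*, *Twist2* and *Tcf21*, held 0 each. Of 32851 RefSeq promoter stretches of 230 bases, 63.5% held at least 1. Among the 4 genes shown, the motif TATAAA was found on either strand of *Dpp4* alone, and 11.8% of all stretches held it. The GC content was 54.3% for *Pdgfra*, 48.7% for *Dpt*, 45.7% for *Cd34* and 42.6% for *Dpp4*, against a median of 51.7% over all stretches. A match describes the letters of the window and is not evidence of binding.

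Levels were compared between genes per kilobase of exon. In WT, *Dpt* was the highest at 139 ± 2.29 CPM per kb (SD, n = 3), followed by *Clec3b* at 52.5 ± 0.441, *Cd34* at 31.5 ± 0.613, *Pdgfrb* at 22.3 ± 1.17, *Pdgfra* at 20.99 ± 0.623, *Osr1* at 15.6 ± 0.454, *Twist2* at 9.92 ± 0.582, *Dpp4* at 6.27 ± 0.500 and *Pi16* at 4.79 ± 0.125 CPM per kb. The order was the same in KO, from *Dpt* at 167 ± 1.28 to *Pi16* at 4.83 ± 0.0612 CPM per kb. *Pdgfrb* and *Pdgfra* were the neighbours whose ranges of mean ± SD overlapped, in WT and in KO (26.2 ± 0.729 and 25.7 ± 0.213 CPM per kb in KO). The 5 genes with the highest levels per kb were the 5 that rose, and the 4 below them were those that did not pass the test. The coefficient of variation within a genotype was between 0.764% (*Dpt* in KO) and 13.4% (*Twist2* in KO).

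**Figure D3:**
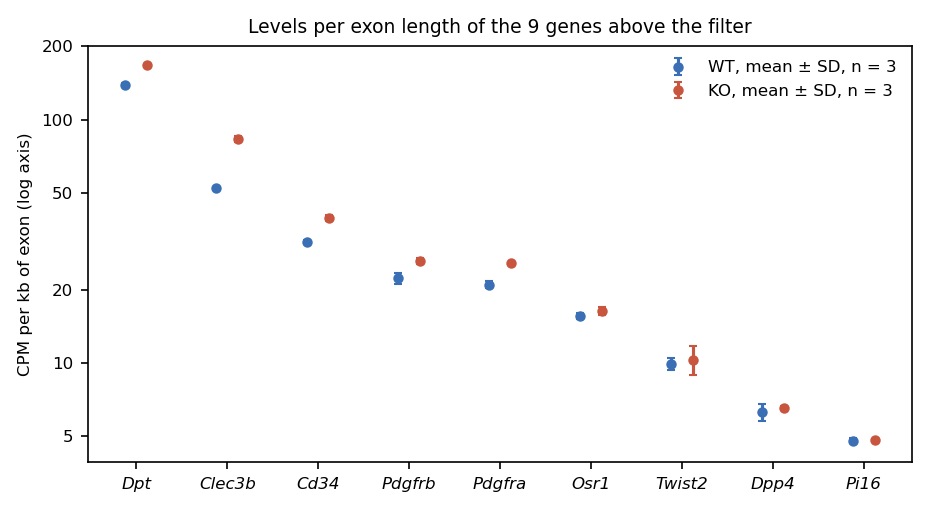
Mean level per kilobase of exon (CPM per kb, log axis) with SD for the 9 genes above the filter, ordered by WT level, in WT (blue) and KO (red), n = 3 each. *Dpt* leads at 139 CPM per kb in WT and *Pi16* is lowest at 4.79 CPM per kb, with *Pdgfrb* and *Pdgfra* next to each other.

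To compare the genes without any scaling of libraries, each was divided by *Pdgfra* in the same library, a comparison added after the data were seen. *Clec3b* had a higher ratio in KO, with a log2 ratio of -2.01 ± 0.031 in WT and -1.64 ± 0.049 in KO, a difference of 0.37. Since *Pdgfra* itself rose by 0.29, a gene with no change of its own has a ratio lower in KO by a like amount. The lower ratios that follow are therefore not falls of the genes named. *Pi16* differed by -0.28 on the same scale, going from -2.79 ± 0.080 to -3.07 ± 0.014, with no overlap. The difference in the ratio was -0.23 for *Dpp4* and -0.22 for *Osr1*, also with no overlap. For these 4 genes the exact two-sided permutation test over samples gave p = 0.1, the smallest p that 3 against 3 allow, and 0.2 after Benjamini-Hochberg adjustment over the 8 ratios. *Twist2* differed by -0.24 (exact permutation p = 0.3, adjusted 0.48), with KO replicate 1 inside the WT range. *Dpt* (-0.024), *Cd34* (0.033) and *Pdgfrb* (-0.055) differed by less than the SD of their WT ratios (exact permutation p = 0.4, 0.6 and 0.5). Ratios to *Pdgfra* did not overlap for 67.9% of all genes tested, against 4 of these 8.

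**Figure D4:**
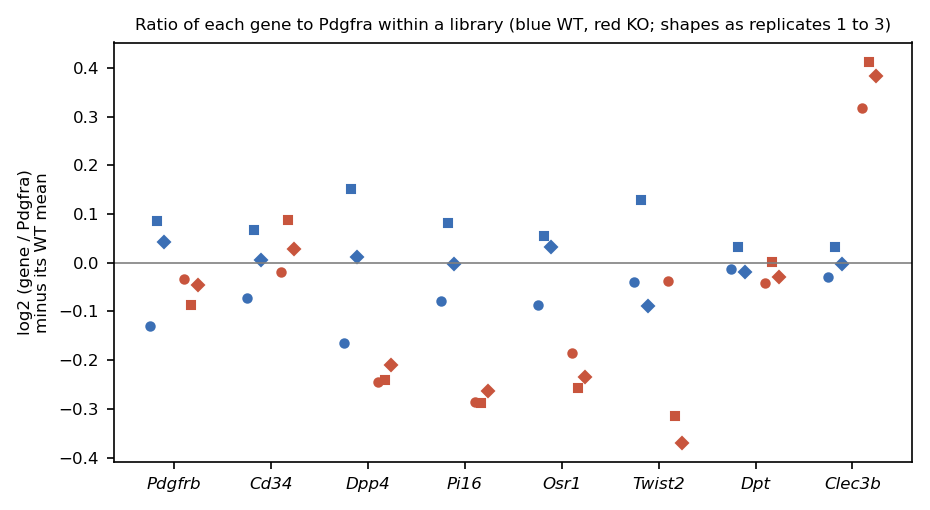
Log2 ratio of each gene to *Pdgfra* within a library, minus its WT mean (vertical axis), for the 3 WT (blue) and 3 KO (red) libraries, with a shape for each replicate. *Clec3b* lies 0.37 higher in KO, *Pi16*, *Dpp4* and *Osr1* lie below their WT points, and *Dpt*, *Cd34* and *Pdgfrb* overlap.

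In 5 lists of related genes by role, also chosen with earlier results of these data known, 53 genes were all tested. Of these, 35 rose (66.0%) and 3 fell, where 21.9% of all genes tested rose and 23.1% fell. Called were 3, all of them higher (5.7%, against 16.7% of all genes called in either direction). The median log2 fold change of the 53 genes was 0.22, against -0.004 for all genes and 0.24 for the 9 genes above. Of the 7 ligands and related genes of the PDGF system, 5 rose and 2 fell, and 0 were called. The ligands went both ways, as *Pdgfa* and *Pdgfc* were the 2 that fell, and *Pdgfb* and *Pdgfd* were among those that rose. These 4 are named after their values were seen. *Pdgfa* fell from 32.02 ± 1.62 to 27.3 ± 0.6003 CPM (log2 fold change -0.23, edgeR adjusted p = 0.00408), and *Pdgfc* fell from 33.4 ± 0.939 to 26.4 ± 1.53 CPM (-0.34, edgeR adjusted p = 6.36e-04). *Pdgfb* rose from 28.9 ± 0.335 to 35.5 ± 0.771 CPM (0.30) and *Pdgfd* from 14.6 ± 1.02 to 17.6 ± 0.403 CPM (0.27). *Sparc*, a matrix protein that binds PDGF, was the most abundant of the list and rose from 3777 ± 46.6 to 4578 ± 79.4 CPM (0.28), and *Pdgfrl*, a receptor-like gene, rose by 0.32.

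Of 12 mesenchymal transcription factors, 4 rose and 0 fell, with a median of 0.070. *Osr2*, the paralog of *Osr1*, was called higher, from 46.2, 42.8 and 47.4 CPM in WT to 73.96, 65.6 and 67.6 CPM in KO (log2 fold change 0.60, edgeR adjusted p = 2.30e-05), whereas *Osr1* had a value of 0.067. The call of *Osr2* lies close to the threshold, and it was not called with library size as the only scaling (0.54), without WT replicate 2 (0.56) or without KO replicate 1 (0.56), though it passed the test each time. *Prrx1*, a homeobox gene of limb mesenchyme and the most abundant of the list, rose by 0.16, a rise that did not pass the test without WT replicate 3 (0.14) or with library size alone (0.088), and *Zeb1* had a value of 0.069 (edgeR adjusted p = 0.302). Of 12 genes of adventitial progenitors, 9 rose and 2 were called. *Ly6a*, which encodes the surface antigen Sca-1 used to sort FAPs, was at 28.1, 22.3 and 23.6 CPM in WT and 54.98, 63.5 and 57.5 CPM in the KO libraries, each KO library above each WT library. Its log2 fold change was 1.25 (standard error 0.085, edgeR adjusted p = 3.05e-06). *Fbn1*, the fibrillin of microfibrils, rose by 0.37 and *Gsn*, an actin-severing protein, by 0.37. *Ly6a* and *Ly6c1*, the other called gene (1.06), belong to a family of similar genes whose reads the counting could have split, and blood and endothelial cells express them as well.

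Among 12 fibroblast matrix genes, 10 rose and 0 were called, with a median of 0.30. *Col1a1* was the most abundant at 18320 ± 1234 CPM in WT libraries and 20480 ± 194 CPM in KO libraries, and its log2 difference of 0.16 was not past the threshold (edgeR adjusted p = 0.15), while it passed the test by DESeq2 (0.16, adjusted p = 0.0191), limma-voom (0.16, adjusted p = 0.0367) and edgeR with upper-quartile factors (0.23, adjusted p = 0.0453). *Col1a2* rose from 12150 ± 78.1 to 14170 ± 530.2 CPM (0.22, edgeR adjusted p = 0.0338). This rise did not pass the test without WT replicate 1 or 3 or KO replicate 2 or 3 (0.22 to 0.24). Nor did it pass with the replicate number as a block (0.22) or with library size alone (0.15). Of 10 signalling genes of fetal interstitial cells, 7 rose, 1 fell and 0 were called. The most abundant were *Dlk1*, an inhibitor of fat cell formation, which rose by 0.38, and *Igf1*, a growth factor for muscle, which rose by 0.17. The rise of *Igf1* did not pass the test without WT replicate 2 or 3 or KO replicate 2 or 3 (0.12 to 0.16). Nor did it pass with the replicate number as a block (0.17) or with library size alone (0.096). All 5 lists had positive medians, between 0.070 and 0.31.

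Cells that share some of the 10 genes were followed through their own markers. Of 8 endothelial markers, 6 rose and 0 were called, with a median of 0.19, and *Pecam1*, an adhesion protein of endothelial junctions, rose by 0.38 and *Cdh5*, a cadherin of the same junctions, by 0.16, which did not pass the test without WT replicate 1 or 2 or KO replicate 2 or 3 (0.12 to 0.17) or with library size alone (0.094). *Cd34* therefore rose beside markers of another cell type that carries it, and their part in its rise was not tested. Of 8 pericyte and mural markers, 6 rose, 1 fell and 1 was called higher, with a median of 0.29, beside 0.24 for *Pdgfrb*. *Rgs5*, a regulator of G-protein signalling in pericytes, rose by 0.31 and *Mcam* by 0.26, and the called gene was *Higd1b* (0.842 ± 0.0744 to 2.39 ± 0.148 CPM). The marker that fell was *Ndufa4l2*, named after its values were seen. It went from 157 ± 18.4 to 108 ± 4.09 CPM (log2 fold change -0.54, edgeR adjusted p = 3.25e-04). With library size as the only scaling or without WT replicate 1, *Ndufa4l2* was called lower (-0.61 each). Pericyte markers summed to 802 to 853 CPM in WT libraries, against 887 to 943 CPM in KO libraries, and endothelial markers to 711 to 742 CPM, against 817 to 859 CPM. Their part in the rise of *Pdgfrb* was not tested.

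Skin could hold fibroblasts of its own. Among 7 markers of the papillary dermis, 3 rose, 3 fell, and 2 were called lower, with a summed level of 561 to 619 CPM in WT libraries, against 556 to 604 CPM in KO libraries. *Crabp1* fell from 123 ± 4.20 to 65.3 ± 11.9 CPM (log2 fold change -0.91), while *Ntn1* and *Lrig1* rose by 0.54 and 0.24. The keratinocyte markers *Krt1* and *Krt10* had log2 fold changes of -5.47 and -6.202. All 8 keratinocyte markers had their highest WT value in replicate 2 and their lowest in replicate 1, an order that 3 of the 9 genes (*Cd34*, *Dpp4* and *Pi16*) and 25.5% of all genes also followed. Their part in the levels of these genes was not tested.

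Cell types that FAPs can form, or that lie next to them, moved in both directions. Of 8 adipocyte markers, 7 were called higher and 1 lower, with a median of 2.43, and their sum was 168 to 186 CPM in WT libraries, against 377 to 439 CPM in KO libraries. *Fabp4*, a fatty acid-binding protein, rose from 109 ± 10.6 to 247 ± 22.2 CPM, and *Cfd*, the adipocyte serine protease adipsin, had 2.78, 0.218 and 2.60 CPM in WT and 26.02, 41.7 and 38.4 CPM in KO. *Cebpa*, a transcription factor of adipocytes that keratinocytes also use, fell from 44.5 ± 7.57 to 17.7 ± 0.292 CPM. Of 7 tendon markers, 4 rose and 2 were called, *Thbs4* (0.63) and *Fmod* (0.63), neither of them with library size alone (0.56 each) and *Fmod* not without WT replicate 2 (0.57). Of 7 cartilage markers, 1 was called higher (*Comp*, 0.79) and 3 lower, among them *Col2a1* (-0.98) and *Matn1* (-2.24), and *Acan* rose by 0.41. Of 6 bone markers, 1 was called higher (*Bglap*, 0.63) and 1 lower (*Dmp1*, -0.67), while *Ibsp* had a value of -0.013 and *Alpl* fell by 0.25, which did not pass the test without WT replicate 3 (-0.21). *Bglap* was not called without WT replicate 1 (0.56), without KO replicate 2 (0.52) or with library size alone (0.56), nor *Dmp1* without KO replicate 1 (-0.58).

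Of 7 muscle fiber markers, 6 were called higher, with a median of 1.38, led by *Myh8* (1.59) and *Acta1* (1.47), the perinatal myosin and the skeletal actin. Of 6 markers that include myogenic progenitor genes, 1 was called higher (*Des*, 1.06, which fibers also express) and 1 lower (*Pax3*, -0.72), and *Myog* fell by 0.22. *Pax3* was not called without WT replicate 2 (-0.53) or without KO replicate 3 (-0.63). Of 6 macrophage markers, 3 were called higher (median 0.61), led by *Mrc1* (0.91), and *Csf1r* rose by 0.35 without being called. Of 5 mast cell markers, 3 were called higher (median 0.65), among them *Cpa3* (0.72) and *Mcpt4* (1.09), while *Cma1* had a value of 0.18 (edgeR adjusted p = 0.0949). Of 5 glial markers, 4 rose, with a median of 0.40, and *Mbp*, which encodes a myelin protein, rose by 0.53. Of 5 mesothelial markers, 4 were tested and 3 called lower (*Upk3b* -5.20 and *Upk1b* -2.11), and the 5 red blood cell markers were all called lower (median -2.91), with *Hbb-bs* at -2.91 and *Hba-a1* at -2.70.

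**Figure D5:**
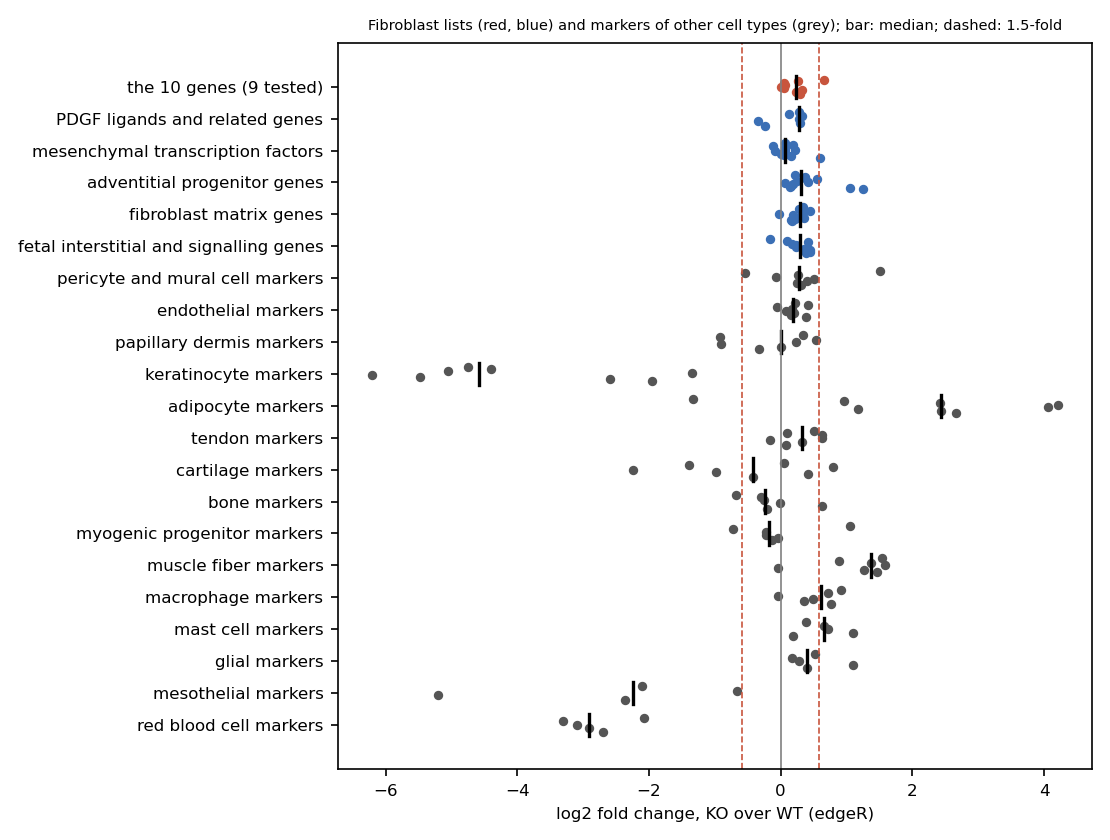
Log2 fold change of KO over WT for each tested gene (points) of the 10 fibroblast genes (red), the 5 related lists (blue) and markers of other cell types (grey), with the median of each list as a bar and dashed lines at 1.5-fold. Medians of the fibroblast lists lie between 0.070 and 0.31, those of adipocyte and muscle fiber markers at 2.43 and 1.38, and those of keratinocyte, mesothelial and red blood cell markers at -4.57, -2.24 and -2.91.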

How the data were processed

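RNA-seq of leg muscle at embryonic day 18.5 was used, with 3 WT and 3 KO libraries as labelled. The authors trimmed 150 bp paired reads with Trim Galore 0.6.6, mapped them to mm10 with HISAT2 2.2.1 and deposited raw counts per gene from featureCounts 2.0.1, with no normalization. The annotation and strand setting are not given in the sources used here. The series table and the files per sample held the same values (0 differed). Of 56262 gene IDs, 55227 were found in GENCODE M21, which gave symbols, positions and exon lengths (union of exons).

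Counts were analysed in R 4.3.3 with edgeR 4.0.16 (filterByExpr, TMM, quasi-likelihood F-test on genotype alone), with Benjamini-Hochberg adjustment of p-values across 22071 genes. The 95% intervals were derived from the F statistic. Levels are CPM on TMM-scaled totals. Replicates of a genotype differed by more than counting noise (mean chi-square per gene 4.85 to 32.9, over genes with at least 10 counts in the pair of libraries). Nothing states that libraries came from separate litters, so p-values measure the spread between these samples, which may be partly technical. DESeq2 1.42.0, limma-voom (limma 3.58.1), other scalings and filters, fits without each sample in turn, a replicate block and other thresholds were the alternatives. The test was checked on simulated data with 200 changed genes and a common dispersion, which is simpler than these data. That check cannot cover differences shared by all libraries of a genotype, such as those of a litter. The members and gene lists were chosen with earlier results of these data known. Named from each list were the 2 most abundant genes, the largest called rise and the largest called fall, and some genes that this rule names are not reported here. Wisp1 was matched as *Ccn4*.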

Additional observations from a re-analysis of the deposited data

How the results depend on the processing

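Of the 9 genes tested, *Clec3b* was called under every setting of the edgeR, DESeq2 and limma-voom fits (log2 fold change 0.59 to 0.73), except with a fold change over 2, where its value of 0.66 was not called. *Cd34* (0.32), *Pdgfra* (0.29), *Dpt* (0.27) and *Pdgfrb* (0.24) kept their direction under all of these settings and were called only with no fold-change threshold. The number of these genes called higher was then 5, and 0 with a fold change over 2, against 1 otherwise. Genes of the 5 related lists called without that threshold were 35 higher and 3 lower, and among all genes 4838 higher and 5098 lower, against 774 higher and 1269 lower with a fold change over 2 and 1835 higher and 1852 lower at 1.5-fold. With library size as the only scaling, the sign turned for *Dpp4* (-0.011), *Osr1* (-0.0013), *Pi16* (-0.057) and *Twist2* (-0.0078), none of which passed the test there. With upper-quartile factors, *Osr1* passed the test without being called (0.13, adjusted p = 0.0403, range over all settings 0.0403 to 0.988). Scaling by library size alone moved the median of all genes by -0.069, and upper-quartile factors by 0.068. Leaving out each sample in turn gave -0.0038 to 0.11 for *Dpp4*, -0.0089 to 0.028 for *Pi16* (both lowest without WT replicate 1) and -0.053 to 0.13 for *Twist2* (lowest without KO replicate 1). No source ties the replicate numbers to litters. Deviations of WT and KO libraries with the same number correlated at -0.20, -0.13 and 0.047. With 3 libraries per genotype, these correlations cannot tell whether libraries with the same number share a litter or a batch. With a replicate block, 1 of the 9 genes was called higher and 0 lower, and 1744 and 1777 of all genes. As ratios to *Pdgfra* within a library, chosen after seeing the data, the differences were 0.37 for *Clec3b*, 0.033 for *Cd34*, -0.024 for *Dpt*, -0.055 for *Pdgfrb*, -0.23 for *Dpp4*, -0.22 for *Osr1*, -0.24 for *Twist2* and -0.28 for *Pi16*. These ratios also carry the rise of *Pdgfra* itself. Of the 10 genes, depth limited *Tcf21*.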
